A study of Mus musculus with 108 samples.

Results

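The cerebral cortex (CX) and the cerebellum (CB) of wild-type (WT) mice were compared at postnatal day 7 (P7). Members were chosen by the sample titles, as the WT libraries of these 2 regions at this age, and there were 12 of them, 6 from CX and 6 from CB, among the 108 libraries of the series. Both regions came from the same 6 mice, as the labels give them, so that each mouse gave 1 library of each region and served as its own control. The series itself holds CX, hippocampus (HIP) and CB of WT mice and of mice heterozygous for a germline CRISPR frameshift in Cul3 (Cul3+/-) at E17.5, P7 and P35, 36 mice in all, and was made to follow that mutation through brain development. The WT mice at P7 carried the wild-type genotype, and the labels give no treatment. Their strain background is labelled C56Bl/6N and their age postnatal. The labels give no sex, while the study states that males and females were used. Total RNA was depleted of ribosomal RNA and sequenced in stranded libraries, and the values are RSEM expected counts per gene, shown here as CPM, a gene's counts scaled to a common normalized library size. All fold changes are CX over CB on the log2 scale, so that a positive value is higher in CX, and SE is the standard error of that difference.

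At this age the regions are known to differ in timing. In the cortex the projection neurons of all layers have been born, and the tissue is extending axons, forming synapses and receiving its interneurons. In the cerebellum the granule neuron progenitors of the external granular layer are still dividing under Sonic hedgehog secreted by Purkinje cells, and the granule neurons they give rise to are only starting to mature. The cortex descends from the telencephalon, where Emx1 and Emx2 act, and the cerebellum from rhombomere territory specified by En1, En2, Pax2 and their partners.

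Library totals ran from 34088843 to 39881798 counts in CX and from 28471543 to 42071420 in CB. Within a region the correlation of log2 CPM between libraries was 0.9815 to 0.9925, and between regions 0.8433 to 0.8881. A pair of libraries stood apart from their groups. The CX library of mouse 4 was the far value, by Dixon's criterion, for 10.9% of the tested genes and the CB library of mouse 6 for 4.73%, against 0.261% to 1.23% in the other 10, and mitochondrial transcripts took 2.67% of the counts in the former against 1.49% to 1.90% in the other CX libraries. The CB libraries of mice 1 and 6 also carried more choroid plexus RNA than the others, as given below. Cul3, the gene mutated in the series, had 178 to 209 CPM in WT CX and 206 to 225 in WT CB, above the 94.9 to 113 and 118 to 125 CPM of the Cul3+/- mice of that age, as the labels say. Cul3 was lower in CX than in CB of WT mice by a small margin (log2 fold change −0.14, SE 0.05, adjusted p = 0.0148).

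Of 17983 genes with enough counts to test, 14556 (80.9%) differed between CX and CB at an adjusted p of 0.1 in edgeR's quasi-likelihood test with mouse as a block. They were 7054 genes higher in CX (39.2%) and 7502 higher in CB (41.7%). At a fold of at least 2 there were 5826 (32.4%), of which 3308 (18.4%) were higher in CX and 2518 (14%) in CB, and at a fold of at least 4 they were 1404 (7.81%) and 977 (5.43%). For 10883 genes (60.5%) the 6 CX libraries and the 6 CB libraries did not overlap. Most genes were thus called, and the counts of list members below are to be read against these shares. The median log2 fold change over all tested genes was −0.0285, and the median size of the log2 fold change was 0.629. In whole tissue, a higher level of a marker can come from more cells of a type or from more RNA per cell, and these cannot be told apart here.

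The share of genes at least 2-fold apart depended on the class of gene. Among 14806 protein-coding genes 2366 (16%) were at least 2-fold higher in CX and 2073 (14%) in CB. Among 1359 long non-coding genes the counts were 370 (27.2%) and 253 (18.6%). Among 1096 entries that the annotation holds as still to be verified by experiment, 478 (43.6%) were higher in CX by that margin and 63 (5.75%) were higher in CB. Pseudogenes lay the other way, with 79 (13.5%) of 585 higher in CX and 107 (18.3%) in CB, as did 137 other or unmatched entries, with 15 (10.9%) and 22 (16.1%).

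**Figure D1:**
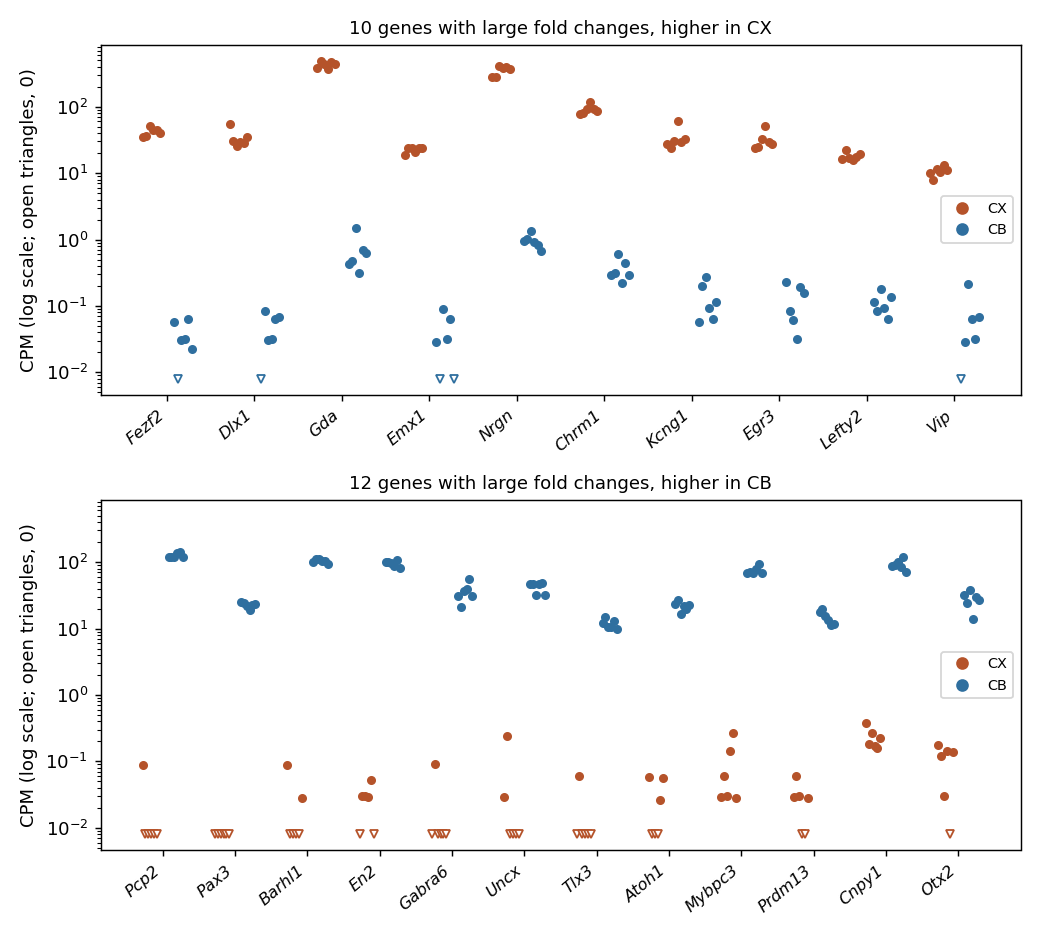
CPM (log axis) in each of the 6 CX and 6 CB libraries at P7 for 10 protein-coding genes higher in CX and 12 higher in CB, from those with the largest fold change in each direction; open triangles at the foot mark libraries with 0 counts. In every panel column the 2 regions are apart by more than 100-fold at the medians, with no overlap.

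Among the genes furthest apart were transcription factors that give each region its identity. Fezf2, which specifies subcerebral projection neurons of layer 5 (chromosome 14, 12342094 to 12348189, GRCm38), had a lowest, median and highest CX level of 34.5, 42.0 and 51.2 CPM against at most 0.0642 CPM in CB (log2 fold change 10.13, SE 0.17, adjusted p = 1.44e-10). The regions did not come near each other. Triples of levels below have the same order.

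Emx1, a factor of the dorsal telencephalon, stood at 18.8, 23.8 and 24.3 CPM in CX and at most 0.0910 in CB (9.26, SE 0.24). Dlx1, a homeobox gene of forebrain interneurons, had 25.8, 29.9 and 54.9 CPM in CX, the highest in mouse 1, and 10 counts over the CB libraries (9.37, SE 0.21). Dlx6 and Dlx5 were at 0 in all 6 CB libraries and were at least 249-fold and 127-fold higher in CX, taking 3 counts over the CB libraries as the limit. Intervals and limits of this kind cover counting error only.

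The remaining genes of this group were of mature or maturing cortical neurons. Gda, which encodes guanine deaminase or cypin, a regulator of dendrite branching, had 368, 436 and 496 CPM in CX against 0.314, 0.558 and 1.49 in CB (9.35, SE 0.22). Nrgn, neurogranin, the calmodulin-binding protein of dendritic spines, had 275, 378 and 407 CPM against 0.679, 0.935 and 1.37 (8.51, SE 0.14). Chrm1, the M1 muscarinic acetylcholine receptor, Kcng1, a potassium channel subunit, Egr3, an activity-induced factor, Lefty2, an inhibitor of Nodal signaling, and Vip, the peptide of a class of interneurons, were higher in CX by 7.26 to 7.96 log2 units. The highest CX values of Chrm1 (119 CPM), Kcng1 (60.0) and Egr3 (51.8) were all in mouse 4, the library that stood apart.

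In CB the same position was held by Pcp2, a Purkinje cell protein (chromosome 8, 3623371 to 3625545). Its CB levels were 118, 120 and 141 CPM, and 3 counts over the CX libraries gave a ratio of 8680 (95% counting interval 2970 to 42100). En2, the engrailed factor of the midbrain-hindbrain territory (chromosome 5, 28165694 to 28172166), had 81.7, 98.7 and 108 CPM in CB against at most 0.0533 in CX (−11.77, SE 0.16, adjusted p = 1.23e-10). Barhl1, a homeobox gene of granule neuron progenitors and their progeny, had 93.3, 104 and 111 CPM against at most 0.0878 (−12.16, SE 0.23). Pax3 was at 0 in every CX library and at 18.7, 22.8 and 25 CPM in CB, at least 1580-fold higher.

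Atoh1, the bHLH factor that founds the granule lineage (chromosome 6, 64729125 to 64731245), had 16.4, 22.2 and 26.7 CPM in CB and 5 counts over the CX libraries (−9.62, SE 0.24). Gabra6, the GABA-A receptor subunit of granule neurons (chromosome 11, 42306437 to 42321072), had 21.1, 33.9 and 55.8 CPM and 3 counts in CX, all in mouse 2, a ratio of 2440 (836 to 11900). Other genes of this group were Uncx, Tlx3 and Prdm13, homeobox or zinc finger factors of the hindbrain and cerebellum, and Otx2, a homeobox factor. Otx2 is also listed for choroid plexus, as 1 of the 3 members of that list higher in CB. Cnpy1, an FGF signaling protein of the isthmus, and Mybpc3, known from the heart as cardiac myosin binding protein C, were in this group too. Mybpc3 had 67.4, 69.8 and 93.3 CPM in CB and at most 0.266 in CX (−9.57, SE 0.20).

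**Figure D2:**
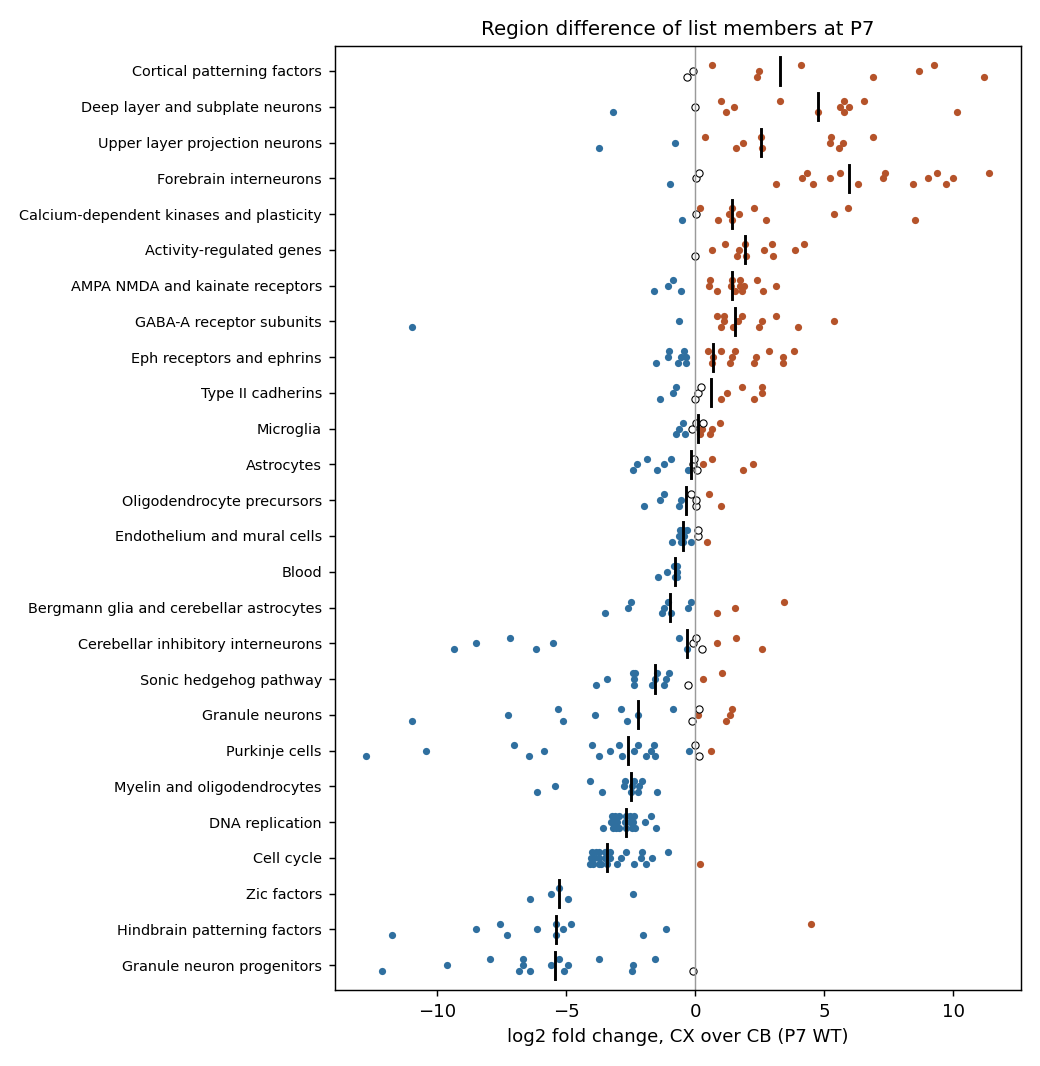
Log2 fold change, CX over CB, of the tested members of 26 gene lists in P7 WT mice; filled points passed the test at an adjusted p of 0.1, open points did not, and bars are list medians. Lists of cortical neurons lie mostly right of 0, and those of granule progenitors, the cell cycle, DNA replication and myelin lie left of it.

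Lists of known genes were then followed, 460 list members of which 440 had enough counts to test. Of 10 cortical patterning factors 8 were higher in CX and none in CB, with a median of 3.28 beside the −0.0285 of all genes. Emx2 had 1 count over the CB libraries, a ratio of 715 (128 to 28300). Lmo4, a cofactor of LIM proteins with the highest CPM of the list, had 188, 238 and 298 CPM in CX against 38, 43.4 and 44.8 in CB (2.48, SE 0.11). Otx1 had 2.98, 3.87 and 6.15 CPM against 3.52, 4.32 and 5.46 and did not pass the test (adjusted p = 0.594), and the values of the regions overlapped.

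Of 13 deep layer and subplate markers 11 were higher in CX and 1 in CB (median 4.74). Crym, a thyroid hormone binding protein of deep layer neurons, had 107, 143 and 192 CPM in CX and at most 2.44 in CB (6.54, SE 0.21). Foxp2, listed for layer 6 and also for Purkinje cells, had 18.7, 24.4 and 33.5 CPM in CX and 19.1, 24.4 and 29.3 in CB (−0.02, SE 0.07, adjusted p = 0.846). Its libraries overlapped throughout.

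Of 12 upper layer markers 10 were higher in CX and 2 in CB (median 2.56). Lhx2 had 41.6, 49.7 and 52.3 CPM in CX and at most 0.546 in CB (6.90, SE 0.12). Mef2c, a transcription factor of maturing excitatory neurons with the highest CPM of this list, had 1445, 1713 and 2092 CPM in CX against 42.5, 44.7 and 48.6 in CB (5.27, SE 0.09), and Pou3f1, an upper layer POU factor, differed by 5.73 (SE 0.18). Calb1, calbindin, is shared with Purkinje cells and lay the other way, at 26.7, 34.4 and 67.3 CPM in CX and 458, 503 and 536 in CB (−3.73, SE 0.17).

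Of 18 markers of forebrain interneurons 15 were higher in CX and 1 in CB (median 5.96). Sst, somatostatin, which had the highest CPM of the list, had 49.8, 71.1 and 91.1 CPM in CX and 1.98, 3.30 and 6.25 in CB (4.34, SE 0.24). Adarb2, which marks interneurons from the caudal ganglionic eminence, did not pass the test, with 27.2, 29.5 and 44.7 CPM in CX and 28.5, 31.7 and 33.9 in CB (adjusted p = 0.81). Calb2, calretinin, was the other gene of this list without a call, and it is also made by granule neurons of the cerebellum.

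The 10 forebrain bHLH and glutamatergic genes were mixed, with 6 higher in CX and 4 in CB (median 0.969). Camk2a, the kinase of excitatory synapses, had 153, 188 and 432 CPM in CX, the highest in mouse 4, and 4.19, 5.13 and 5.65 in CB (5.37, SE 0.17). Slc17a7, the vesicular glutamate transporter VGLUT1, had 356, 424 and 486 CPM against 53.7, 59.8 and 83.8 (2.74, SE 0.07). Neurod2, a bHLH factor shared by cortical and granule neurons, lay the other way at 76.1, 84.7 and 90.0 CPM in CX and 149, 179 and 191 in CB (−1.09, SE 0.06). Neurod2 was picked out after its values were seen.

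Of 16 granule neuron progenitor markers 15 were higher in CB and none in CX, all by at least 2-fold (median −5.44). Zic1, a zinc finger factor that keeps progenitors undifferentiated, had the highest CPM of the list, at 1206, 1257 and 1319 CPM in CB and 10.2, 14 and 28.9 in CX (−6.42, SE 0.22), the highest CX value being that of mouse 1. The short list of Zic factors, all of them also members of the progenitor list above, was higher in CB for 5 of 5 tested. Its summed level was 1707 to 1848 CPM in CB against 24.69 to 50.74 in CX. Rgs16 was the member without a call, at 3.73 to 5.38 CPM in CX and 3.78 to 5.96 in CB.

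Of 12 tested hindbrain patterning factors 11 were higher in CB (median −5.41), and Pax8 and Gbx2 had too few counts to test. Pax2, which marks cerebellar interneuron precursors, had 2.39, 3 and 3.69 CPM in CB and 1 count over the CX libraries, a ratio of 635 (113 to 25100). Meis1, a TALE homeobox factor of granule progenitors, had 151, 155 and 170 CPM in CB and 1.92, 2.44 and 9.31 in CX (−5.42, SE 0.32). Meis2, its paralog and a gene of striatal and olfactory neurons too, was the exception, at 101, 116 and 185 CPM in CX and 0.510, 6.06 and 15.5 in CB (4.48, SE 0.47).

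Purkinje cell markers were higher in CB for 17 of 20 and higher in CX for 1 (median −2.60). Itpr1, the inositol trisphosphate receptor, had the highest CPM of the list, at 634, 672 and 813 CPM in CB and 161, 221 and 246 in CX (−1.72, SE 0.09). Skor2, a corepressor needed for Purkinje cell differentiation, was at 0 in every CX library and at 4.07, 4.88 and 5.87 CPM in CB, at least 339-fold higher.

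Markers of differentiated granule neurons were higher in CB for 9 of 15 and in CX for 4 (median −2.21). Fat2, a protocadherin of granule neurons, had 273, 333 and 426 CPM in CB and 1.52, 2.15 and 3.37 in CX (−7.28, SE 0.16). Snap25, a synaptic protein of all neurons with the highest CPM of this list, lay the other way with 589, 692 and 763 CPM in CX and 222, 269 and 300 in CB (1.36, SE 0.05). Kcnd2, a potassium channel of both regions, was barely apart (0.10, SE 0.05, adjusted p = 0.0991), and it was not called when mouse 1, 2, 3, 5 or 6 was left out.

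The inhibitory interneurons of the cerebellum gave 7 of 13 markers higher in CB and 3 higher in CX (median −0.31). Ptf1a, the bHLH factor that founds them, was at 0 in CX and at 1.64, 2.36 and 2.91 CPM in CB, at least 164-fold higher. Gad1, the enzyme of GABA synthesis in both regions, had 88.2, 99.2 and 140 CPM in CX and 154, 162 and 172 in CB (−0.62, SE 0.10). Slc6a5, the glycine transporter, was at most 0.115 CPM in CX and at 8.39, 9.40 and 19.8 CPM in CB (−7.17, SE 0.23), the highest in mouse 6. Of 9 markers of unipolar brush cells and cerebellar nuclei, 5 were higher in CB and 3 in CX. Those higher in CX include Lhx2 (6.90), also listed for upper layer neurons, and Meis2 (4.48). Tbr1, another member of this list, is also listed for deep layer neurons.

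Cajal-Retzius markers, listed for the marginal zone of the cortex, were higher in CB for 5 of 6. Lhx1 (0.146, 0.274 and 0.361 CPM in CX against 31.1, 32.5 and 38.7 in CB) is also a Purkinje cell factor. Reln, the secreted protein that both Cajal-Retzius cells and granule neurons make, had 317, 389 and 482 CPM in CX and 570, 728 and 817 in CB (−0.87, SE 0.06). Neither gene overlapped between the regions.

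Genes of proliferation were higher in CB almost throughout. All but 1 of 25 cell cycle genes were higher in CB, and all 22 genes of DNA replication were, each by at least 2-fold (medians −3.42 and −2.70). The summed level of the cell cycle list was 2360 to 3036 CPM in CB and 316 to 417.8 in CX. Cyclin B1 (Ccnb1) had 76.4, 109 and 117 CPM in CB and 4.09, 5.98 and 9.48 in CX (−4.08, SE 0.12, adjusted p = 1.82e-09).

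Cdc20, the activator of the anaphase-promoting complex, had 51.4, 70.2 and 75.1 CPM in CB and 3.37, 4.12 and 4.31 in CX (−4.06, SE 0.06). Ccnd2, the cyclin D of granule progenitors with the highest CPM of the list, had 347, 379 and 447 CPM in CB and 74.0, 81.7 and 149 in CX (−2.11, SE 0.14), the highest CX value again in mouse 4. The exception was Cdkn1a, the cell cycle inhibitor p21, with 11.5, 12.2 and 14.7 CPM in CX and 9.87, 10.8 and 13.4 in CB (0.19, SE 0.08, adjusted p = 0.0522). That call was lost under upper-quartile normalization and without mouse 4 or 5.

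Among replication genes, the licensing factors Cdc6 (0.962, 1.29 and 2.14 CPM in CX against 12.7, 17.6 and 19.3 in CB) and Cdt1 (−3.27, SE 0.10) were furthest apart. Pcna, the sliding clamp, with the highest CPM, had 37.9, 49.0 and 55.4 CPM in CX and 158, 187 and 215 in CB (−1.95, SE 0.08). Rfc3, a subunit of the clamp loader, was the least changed at −1.52 (SE 0.06). None of the replication genes named here overlapped between regions.

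The promoters of these genes are shown because they moved together and because textbook elements for G2/M and for S phase genes differ. The windows run from 250 bases before to 50 bases after the RefSeq start of each gene (GRCm38.p6), and 27025 genes had one, among them 18 of the 25 cell cycle genes and 17 of the 22 replication genes. The CHR element was searched as TTTGAA, the CCAAT box as CCAAT, and E2F sites as TTTGGCGC or TTTCGCGC, all on both strands, and the E2F words overlap where they face each other. Of the 18 cell cycle windows 10 (55.6%) held both TTTGAA and CCAAT, against 7.12% of all windows. Of the 17 replication windows 8 (47.1%) held an E2F word, against 0.833% of all, and 2 (11.8%) held both TTTGAA and CCAAT. Only 1 cell cycle window (5.56%), that of Cdk1, held an E2F word, TTTCGCGC. A match of letters is a description and does not show that a factor binds there. The genes printed were chosen for their matches, and the last 160 bases before the start are given 5′ to 3′ on the gene's strand, with capitals, on either strand, for TTTGAA and CCAAT in the cell cycle genes and for the E2F words in the replication genes. Other searched words in these windows are left in lower case.

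The first 3 are of genes of mitosis, with CHR and CCAAT letters in capitals. Cdk1 (chr10:69352913-69353072, minus strand), the kinase that drives mitosis, differed by −3.51 (SE 0.09). Cdc20 (chr4:118437344-118437503, minus strand) was described above. Kif11 (chr19:37376222-37376381, plus strand), the motor that separates spindle poles, differed by −3.52 (SE 0.06).
Cdk1: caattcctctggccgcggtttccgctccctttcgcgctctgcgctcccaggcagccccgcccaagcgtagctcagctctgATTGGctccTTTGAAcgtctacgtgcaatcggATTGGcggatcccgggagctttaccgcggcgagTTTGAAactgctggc
Cdc20: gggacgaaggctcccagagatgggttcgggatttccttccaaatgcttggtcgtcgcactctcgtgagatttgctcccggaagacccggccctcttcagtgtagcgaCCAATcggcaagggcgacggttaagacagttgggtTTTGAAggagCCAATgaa
Kif11: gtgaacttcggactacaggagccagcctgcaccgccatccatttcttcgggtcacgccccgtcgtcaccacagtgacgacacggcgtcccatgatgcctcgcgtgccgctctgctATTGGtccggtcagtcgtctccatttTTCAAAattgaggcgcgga
In these windows the TTTGAA nearest to the start lies 15, 18 and 19 bases before it, with a CCAAT at 48, 53 and 45 bases. Cdk1 also holds a TTTGAA at 71 and a CCAAT at 80 bases, and Cdc20 a CCAAT at 8 bases, nearer to the start than its TTTGAA.

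The other pair are of subunits of the replicative helicase, with E2F words in capitals. Mcm5 (chr8:75109349-75109508, plus strand) had 9.60, 12.1 and 13.1 CPM in CX and 87.5, 103 and 123 in CB (−3.13, SE 0.08). Mcm6 (chr1:128359706-128359865, minus strand) had 24.6, 27.8 and 33.0 CPM against 135, 165 and 197 (−2.51, SE 0.06).
Mcm5: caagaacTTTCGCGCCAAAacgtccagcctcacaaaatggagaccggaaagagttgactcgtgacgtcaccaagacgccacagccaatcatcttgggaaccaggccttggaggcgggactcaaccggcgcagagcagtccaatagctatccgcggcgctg
Mcm6: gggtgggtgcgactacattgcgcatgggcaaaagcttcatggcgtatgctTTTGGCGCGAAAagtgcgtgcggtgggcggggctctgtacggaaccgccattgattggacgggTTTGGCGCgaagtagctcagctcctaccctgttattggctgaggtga
In both windows a TTTGGCGC and a TTTCGCGC on opposite strands share bases.

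Sonic hedgehog (Shh) is the mitogen of granule progenitors, Ptch1 its receptor, Smo the transducer that Ptch1 restrains, and Gli1 and Gli2 the factors that answer to it. Of the 15 pathway genes 12 were higher in CB, all by at least 2-fold, and 2 in CX (median −1.55). Shh itself was low in both regions, at 1.12, 1.66 and 2.10 CPM in CX and 1.64, 1.91 and 2.47 in CB, with overlapping libraries, and did not pass the test (−0.28, SE 0.19, adjusted p = 0.193).

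Its receptor Ptch1, which is also a target, had 34.7, 40.6 and 57.2 CPM in CX and 115, 118 and 122 in CB (−1.50, SE 0.09). Smo had 16.7, 18.3 and 20.5 CPM against 86.7, 95.9 and 107 (−2.38, SE 0.05). The responding factors were furthest apart. Gli1 had 1.01, 1.38 and 2.16 CPM in CX and 18, 20.8 and 25.1 in CB (−3.85, SE 0.13), and Gli2 had 1.73, 2.04 and 4.11 against 20.8, 24.2 and 29.9 (−3.44, SE 0.19), with mouse 4 the highest in CX. Gli3, mostly a repressor, differed by −1.13 (SE 0.13), and Mycn, a target that drives progenitor division, by −1.23 (SE 0.08). Sfrp1, a secreted Wnt inhibitor with the highest CPM of the list, had 25.7, 31.2 and 35.6 CPM in CX and 142, 149 and 175 in CB (−2.33, SE 0.08). The Gli word GACCACCCA was in 0 of the 9 windows of the list and in 0.244% of all windows.

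Genes of forebrain neurogenic progenitors were higher in CB for 10 of 12 and in CX for none (median −1.93). Insm1, a zinc finger factor of dividing neuronal precursors, had 143, 159 and 188 CPM in CB and 3.95, 4.67 and 5.46 in CX (−5.11, SE 0.10). Neurog1 was at 0.577, 1.48 and 2.07 CPM in CB and at 1 count in CX, a ratio of 299 (53.3 to 11900). Vim, vimentin of radial and Bergmann glia, had 248, 297 and 354 CPM in CB and 44.1, 49.9 and 57.8 in CX (−2.55, SE 0.06). Hes1, a Notch target, did not pass the test, with 6.20 to 9.41 CPM in CX and 6.77 to 8.02 in CB.

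Glia differed by kind. All 13 tested myelin genes were higher in CB, each by at least 2-fold (median −2.5), and Opalin had too few counts. Mobp, a protein of compact myelin, had 0.365, 1.11 and 2.53 CPM in CX and 9.83, 95.0 and 171 in CB (−6.12, SE 0.30). Mbp, myelin basic protein, had 72.1, 83.2 and 93.7 CPM in CX and 178, 535 and 853 in CB (−2.5, SE 0.22).

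The regions did not overlap for Mobp or Mbp, but the CB libraries varied widely, with a summed list level of 508.1 CPM in mouse 2, 1134 in mouse 1 and 2435 in mouse 6, against 172.1 to 230.6 in CX. Without mice 4 and 6 the list median was −2.23, and all 13 were still higher in CB.

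Oligodendrocyte precursor genes, by contrast, gave 5 higher in CB and 2 in CX of 10 (median −0.37). Pdgfra, their growth factor receptor, had 156, 163 and 167 CPM in CX and 139, 158 and 187 in CB (adjusted p = 0.518), and Olig2, the lineage factor, had 20, 24.7 and 26.1 against 16.2, 24.8 and 29.5 (adjusted p = 0.899). Both overlapped between regions. Bcas1, which marks early myelinating cells, had 15, 20.7 and 26.1 CPM in CX and 54.6, 84.6 and 98.2 in CB (−1.98, SE 0.08).

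Of 14 astrocyte genes 7 were higher in CB and 4 in CX (median −0.18). The glutamate transporters of astrocytes went in opposite directions. Slc1a3 (GLAST), dominant in Bergmann glia, had 402, 407 and 426 CPM in CX and 898, 949 and 1032 in CB (−1.22, SE 0.05), whereas Slc1a2 (GLT-1) had 715, 908 and 1978 in CX and 162, 203 and 279 in CB (2.24, SE 0.17). Aqp4, the water channel of end feet, had 150, 159 and 168 CPM in CX and 621, 802 and 889 in CB (−2.27, SE 0.07). Slc1a2 was picked out after its values were seen.

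Of 12 Bergmann glia markers 9 were higher in CB and 3 in CX (median −0.99). Gdf10, a growth factor of these cells, had 131, 135 and 145 CPM in CB and 10.3, 11.6 and 15.3 in CX (−3.49, SE 0.08). Npy1r, a neuropeptide Y receptor listed with them, lay the other way (3.43, SE 0.09). Microglia genes gave 5 higher in CX, 4 in CB and none by 2-fold (median 0.0975), from P2ry12 at 0.97 (SE 0.07) to Trem2 at −0.75 (SE 0.11).

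Genes of excitatory transmission were higher in CX. Of 17 tested subunits of AMPA, NMDA, kainate and delta receptors, 13 were higher in CX and 4 in CB (median 1.44). Grin2b, the juvenile NMDA receptor subunit, had 917, 1084 and 1689 CPM in CX, the highest in mouse 4, and 96.0, 121 and 191 in CB (3.12, SE 0.20). Grin2a, the subunit that gains ground as synapses mature, had 142, 183 and 256 CPM against 20, 28.9 and 42.7 (2.61, SE 0.11). Per kilobase of exon the CX mean was 47.0 CPM for Grin2b and 10.2 for Grin2a.

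GABA-A receptor subunits were higher in CX for 12 of 14 and in CB for 2 (median 1.55). Gabra5, an extrasynaptic alpha subunit, had 135, 145 and 159 CPM in CX and 1.96, 3.32 and 6.40 in CB (5.37, SE 0.17). The 2 higher in CB were the subunits that pair in granule neurons, Gabra6, described above, and Gabrd, with 10.8, 12.1 and 15.2 CPM in CX and 14.5, 19.0 and 26.6 in CB (−0.62, SE 0.08). Gabrd overlapped between regions, though it was higher in CB in all 6 mice.

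Metabotropic glutamate receptors gave 5 of 7 higher in CX and 2 in CB (median 2.36). Grm7, a presynaptic autoreceptor, had 111, 122 and 129 CPM in CX and 14.9, 15.3 and 21.8 in CB (2.89, SE 0.07). Grm5, a postsynaptic receptor of forebrain neurons, had 428, 471 and 502 CPM against 74.3, 92.1 and 108 (2.36, SE 0.08). Transmitter transporters were divided evenly, with 6 higher in each region, Slc17a7 and Slc6a5 at the ends.

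Cerebellins, the bridges between neurexins and delta receptors, were divided by member. Cbln3, made by granule neurons, had 31.9, 39.5 and 63.0 CPM in CB and 0.881, 1.01 and 1.26 in CX (−5.34, SE 0.11), and Cbln4 lay the other way, at 19.7, 21 and 22.7 CPM in CX and 0.708, 1.08 and 3.28 in CB (3.94, SE 0.25). Of the 12 genes of cerebellins and partners 9 were higher in CX and 3 in CB.

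Genes that neuronal activity induces were higher in CX for 11 of 12 and in CB for none (median 1.94). Npas4, an activity-dependent factor of inhibitory synapses, had 3.28, 4.39 and 6.61 CPM in CX and 0.145, 0.193 and 0.385 in CB (4.23, SE 0.21), and Egr4 differed by 3.85 (SE 0.21). Fos, the gene most used as a mark of activity, had 4.56, 6.57 and 7.60 CPM in CX and 4.96, 6.25 and 8.37 in CB (0.00, SE 0.10, adjusted p = 0.994). Of 13 calcium-dependent kinases and plasticity genes 11 were higher in CX and 1 in CB, from Nrgn and Camkv (490, 541 and 622 CPM against 7.79, 8.95 and 11.7, 5.91, SE 0.09) to Prkcb, which did not pass the test (adjusted p = 0.885).

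Guidance and adhesion families were divided. Of 21 Eph receptors and ephrins 13 were higher in CX and 8 in CB (median 0.70). Epha4, a receptor of repulsive axon guidance, had 334, 464 and 540 CPM in CX and 35.9, 42.0 and 47.0 in CB (3.41, SE 0.07), and Epha5 had 186, 212 and 271 against 11.1, 15 and 23.5 (3.81, SE 0.16). Of 12 type II cadherins 6 were higher in CX and 3 in CB, with Cdh9 at 2.60 (SE 0.14) and Cdh20 without a call (31.4 CPM at the median of each region, adjusted p = 0.98).

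Lists of other cells and neighbouring tissue were examined in the same libraries. Choroid plexus genes summed to 69.08 to 119.2 CPM in CX, and in CB to 112.7 to 134.2 in mice 2 to 5, 511.3 in mouse 1 and 1854 in mouse 6. Of its 9 tested members 3 were higher in CB, 2 in CX and 4 without a call. Ttr, transthyretin, the defining gene of choroid plexus, had 0.293, 0.535 and 35.1 CPM in CX and 0.113, 2.59 and 1490 in CB and did not pass the test (adjusted p = 0.24), and Clic6 had 1.72, 2.33 and 16.7 CPM in CB against 0.391, 0.613 and 1.15 in CX (−2.30, SE 0.51). Without mice 1 and 6 the values of Ttr turned to 1.81 and those of Slc4a5 from −0.14 to 2.10, both then called higher in CX. The CX level of Ttr was 35.1 CPM in mouse 5 and at most 0.790 in the other CX libraries.

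Blood genes were higher in CB for 7 of 7 tested (median −0.79, summed 219 to 391.6 CPM in CX and 416.9 to 619.7 in CB), with Hbb-bs at −0.71 (SE 0.09). Meningeal and fibroblast genes were higher in CB for 9 of 10 (median −0.75), with Col3a1 at 42.8, 54.9 and 79.0 CPM in CX and 192, 217 and 332 in CB (−1.98, SE 0.15). Endothelial and mural genes were higher in CB for 10 of 13 and in CX for 1, none by 2-fold (median −0.47). Cldn5, the tight junction protein of vessels, had 44.3, 53.9 and 56.6 CPM in CX and 74.5, 81.8 and 91.4 in CB (−0.65, SE 0.07). The part of vessels, blood and membranes in the other differences was not tested.

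**Figure D3:**
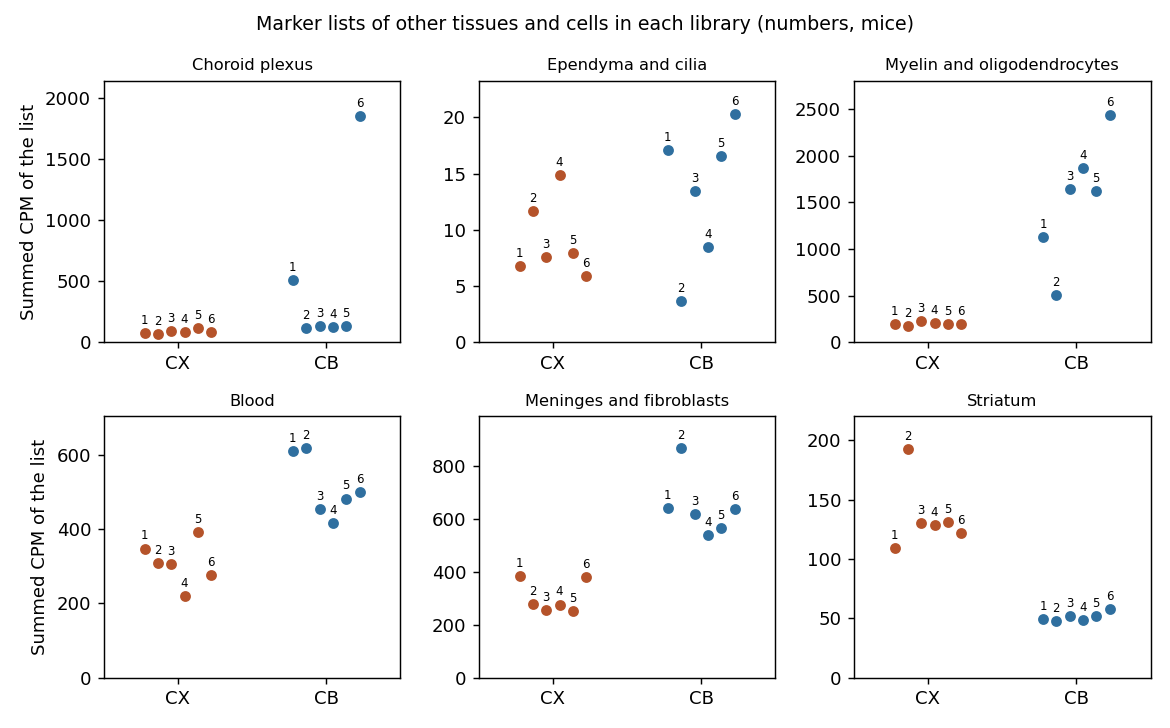
Summed CPM of 6 marker lists of other cells or tissue in each CX and CB library at P7, with mouse numbers. Choroid plexus genes reach 511.3 and 1854 CPM in the CB libraries of mice 1 and 6, myelin genes run from 508.1 to 2435 CPM in CB, and striatal genes are higher in all CX libraries.

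Striatal genes gave 6 higher in CX and 1 in CB of 11 tested (summed 109.3 to 192.9 CPM in CX, the highest in mouse 2, and 48.04 to 58.2 in CB). Drd1, the D1 dopamine receptor, had 13.5, 15.9 and 22.3 CPM in CX and at most 0.394 in CB (5.72, SE 0.15), while Rarb did not pass the test. Drd1 is also expressed in cortex, and the part of striatal tissue in CX was not tested. Of 8 ependymal genes 3 were higher in CB and 5 without a call. Of 15 brainstem and midbrain genes 9 were under the count limit, the defining Chat and Fev among them, and of the 6 tested 4 were higher in CX and 2 in CB (median 2.2). They summed to 6.106 to 13.84 CPM in CX and, in CB, to 27.43 in mouse 6 and 10.49 to 13.23 in the others. Most of each CB sum was Slc6a5, which is also listed for inhibitory interneurons of the cerebellum. It had 19.81 CPM in the CB library of mouse 6 and 8.389 to 10.72 in the others. Slc6a4, the serotonin transporter, which thalamic axons also make at this age, had 1.18, 2.59 and 3.81 CPM in CX and at most 0.113 in CB. Of 7 thalamic genes 4 were higher in CB, among them Zic1, and 1 in CX. Hippocampal neuron genes were even, with 4 higher in each region.

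HIP of the same 6 mice was set beside the 2 regions. CX differed from HIP for 10533 of 18493 genes (57%) and HIP from CB for 14465 (78.2%). These comparisons share libraries with that of CX and CB and are given side by side. The HIP levels were normalized in a fit of all regions together, so their scale differs slightly from that of the CX and CB levels above. Several genes far apart between CX and CB had HIP levels nearer to those of CX. Gda had a mean of 275 CPM in HIP, Nrgn 239, Camk2a 383 and Grin2b 859, and En2 0.113, Pax3 0.00963 and Zic1 26. Mef2c had a mean of 131 CPM in HIP, between its levels in CX and CB. Crym was higher in HIP, at 742 CPM, than in either. Ccnb1 and Cdc20 had means of 11.2 and 7.14 CPM in HIP, below every CB library.

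The same comparison in 6 Cul3+/- mice of that age, none of which enters the WT comparison, called 14877 of 17882 genes (83.2%), 5441 of them (30.4%) at 2-fold or more. Of the genes at least 2-fold apart, 4972 were so in both genotypes and in the same direction, 85.3% of the WT genes and 91.4% of the mutant genes, and 1 was so in opposite directions. In the mutants Camk2a differed by 4.90, Zic1 by −6.15 and Ccnb1 by −3.81. Of 171 named genes 163 had the same sign in both. The furthest from the line of equality were choroid plexus genes, with Ttr at −8.83 in the mutants and −4.60 in WT.

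The interaction of region and genotype, the test of whether the region difference itself differed, called 0 of 18927 genes with edgeR, and 1006 had an unadjusted p under 0.05. DESeq2 called 0 too, with 845 genes under 0.05. The median size of the difference was 0.112 log2 units and its median SE 0.125. With no low-count filter 1 gene was called, Gm10240, whose 144 counts in WT CB came from 3 libraries and whose 114 counts in mutant CX came from 2. It was named after its value was seen.

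**Figure D4:**
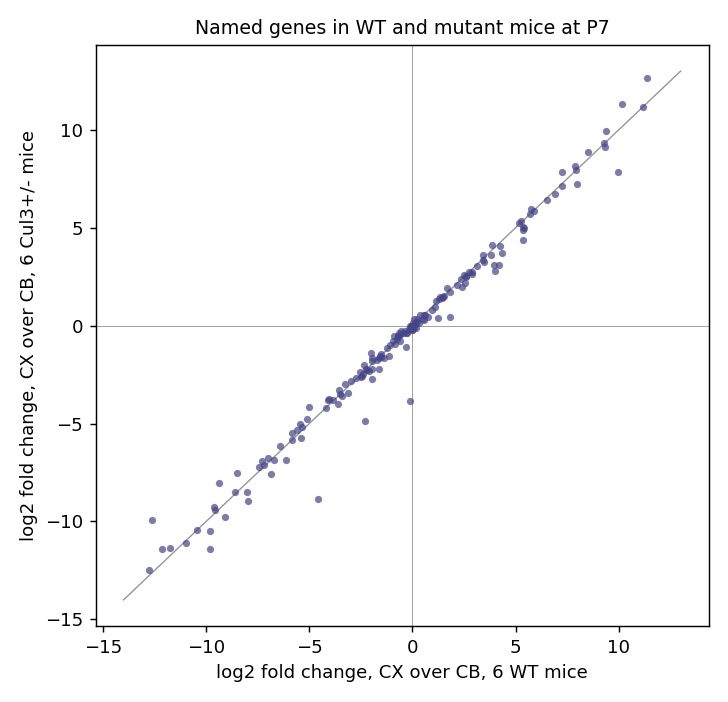
Log2 fold change, CX over CB, of 171 named genes in 6 WT mice (horizontal axis) and in 6 Cul3+/- mice (vertical axis) at P7, with the line of equality. Of these genes 163 have the same sign in both genotypes.

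The P7 difference was then set against E17.5 and P35, with all WT mice of the 3 periods in a single fit, so that P7 values shift slightly from those above. At P35 5 mice were used, since the label of 1 mouse and the study's sample table disagree on its genotype. Of 19846 genes 13884 (70%) had another region difference at P7 than at E17.5, 35.5% toward CX and 34.4% toward CB. From P7 to P35 it changed for 12213 (61.5%), 31.5% toward CX and 30% toward CB. The median over all genes was −0.0115 at E17.5, −0.0653 at P7 and −0.0718 at P35.

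**Figure D5:**
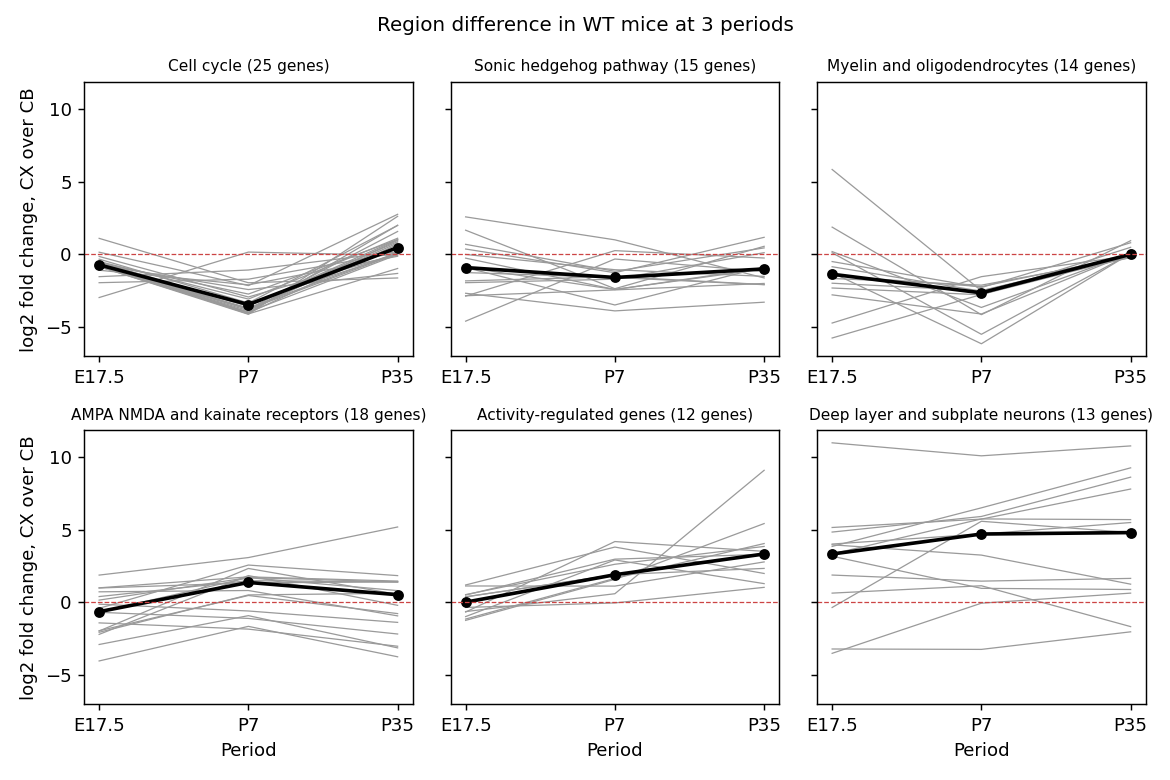
Log2 fold change, CX over CB, at E17.5, P7 and P35 in WT mice for the members of 6 gene lists (grey lines) and their medians (black). The cell cycle median falls from −0.732 to −3.47 and returns to 0.459, while the median of deep layer genes stays between 3.32 and 4.79.

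The gap in proliferation genes was wider at P7 than before or after. The median of the cell cycle list was −0.73 at E17.5, −3.47 at P7 and 0.46 at P35, with 22 of 25 genes moving toward CB up to P7, 2 toward CX, and 24 moving toward CX after it. The summed level of the list went from 1370 CPM at E17.5 to 341 at P7 and 212 at P35 in CX, and from 1830 to 2640 to 257 in CB. DNA replication genes moved toward CB for 22 of 22 and then toward CX for 22 of 22 (medians −0.64, −2.75 and −0.60). Top2a, the topoisomerase of dividing cells, had mean levels of 192, 26.3 and 4.79 CPM in CX and 295, 426 and 1.21 in CB at the 3 periods. Top2a was picked out after its values were seen.

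Granule progenitor genes followed (medians −2.62, −5.49 and −3.01), with 13 of 16 moving toward CB up to P7. Their summed level was 4050, 352 and 207 CPM in CX at the 3 periods and 2400, 3890 and 1830 in CB. The move up to P7 thus held a fall in CX as well as a rise in CB. The 5 Zic members gave only 67.6 CPM of the CX sum at E17.5 and 31.7 at P7, so other members carried its fall. Those members are not particular to granule progenitors throughout, and Pax6 is also listed for forebrain neurogenic progenitors. Atoh1 had mean CB levels of 27.1, 21.2 and 0 CPM at the 3 periods. Gabra6, a gene of mature granule neurons, took the opposite course, at 0.0359, 34.9 and 791 CPM in CB, and its region difference was 0.07 at E17.5 and −14.47 at P35. Hedgehog genes had medians of −0.92, −1.60 and −1.02, with 10 of 15 moving toward CB up to P7. Their summed level went from 599 to 245 CPM in CX up to P7 and from 672 to 796 in CB. Shh had a region difference of −4.61 at E17.5, before the P7 value without a call.

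Myelin genes had a median of −1.38 at E17.5, −2.66 at P7 and −0.00839 at P35, and all 14 moved toward CX after P7. Their summed level was 187 CPM at P7 and 5230 at P35 in CX, and 1500 and 5280 in CB. Microglia genes had medians of −0.11 at E17.5 and 0.0478 at P7 and then moved toward CX for 12 of 12, to a median of 1.74.

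Synaptic genes moved toward CX up to P7. The median of ionotropic glutamate receptor genes was −0.65 at E17.5, 1.36 at P7 and 0.52 at P35, with 14 of 18 moving toward CX up to P7 and 11 toward CB after it. Grm5 and the other metabotropic receptors had a median of −1.10, 2.31 and 1.66. GABA-A receptor genes went from 0.026 to 1.40 and 0.80, and calcium-dependent kinases from 0.0251 to 1.38 and 1.05. Camk2a had a region difference of 0.03 at E17.5 and 4.68 at P35. Activity-regulated genes kept on, from 0.00433 to 1.89 and 3.32.

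Of the regional factors named above, Fezf2 differed by 10.97 at E17.5 and 10.76 at P35, and En2 by −10.05 and −8.90. Deep layer genes had medians of 3.32, 4.69 and 4.79 and forebrain interneuron genes 4.48, 5.90 and 6.57. Some shared factors turned sign, among them Neurod2, from 2.12 at E17.5 to −1.14 at P7, and Bhlhe22, from 1.87 to −0.81, both bHLH factors made by cortical and granule neurons and picked out after their values were seen. Otx1 went from 6.17 at E17.5 to no call at P7 and 4.04 at P35, with a CB level of 0.118, 4.30 and 0.140 CPM at the 3 periods. Foxp2 had been −3.52 at E17.5, with 320 CPM in CB.

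The largest single changes up to P7 toward CX, by the fixed rule, were of Slc6a2, the noradrenaline transporter, Robo3, a guidance receptor of crossing axons, Lamp5, Cdhr1 and Slc30a3, the zinc transporter of glutamatergic vesicles. Slc6a2 had 17.8 CPM in CB at E17.5 and 0.695 at P7, and Robo3 14.9 and 0.243. These falls in CB are smaller than the changes of the region differences (10.22 and 9.38 log2 units), which also hold the levels in CX. In this fit the 11 tested brainstem and midbrain genes had a median of −6.83 at E17.5 and −0.592 at P7. The part of neighbouring brainstem tissue in CB was not tested. Slc30a3 had 0.382 CPM in CX at E17.5 and 35.6 at P7. The largest toward CB were of Gabra6, Tfap2c, the interferon-inducible genes Ifi203 and Mndal, and Neurog2, the proneural factor of cortical progenitors, which had 47.9 CPM in CX at E17.5 and 0.198 at P7. Ifi203 and Mndal belong to a family of similar genes, so that the assignment of reads between them is uncertain.

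After P7 the largest changes toward CX were of Nhlh1, Hist1h2ah, Prdm13, Dtl and Egr2. Nhlh1, a bHLH factor of new-born granule neurons, had 36.7 CPM in CB at P7 and 0.0444 at P35, and Dtl, a replication factor, 41.7 and 0.283. Egr2, an activity-induced gene in neurons, had 2.70 CPM in CX at P7 and 26.7 at P35. That rise is smaller than the change of its region difference (8.496 log2 units), which also holds the levels in CB. The largest toward CB were of Crtam, Dao, Cbln3, Barhl2 and Trim67. Cbln3 had 41.2 CPM in CB at P7 and 1532 at P35, and Dao, D-amino acid oxidase, 0.361 and 59.0, having been too low to test in the P7 comparison alone. Trim67 had 149 CPM in CX at P7 and 2.06 at P35.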

How the data were processed

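RNA-seq of CX and CB from 6 WT mice at P7 was used, with HIP, Cul3+/- and other-age libraries for the side comparisons. Per the labels and the study's methods, the authors trimmed reads with Cutadapt 1.14, aligned them with STAR 2.5.3a to the mouse genome GRCm38 and quantified GENCODE genes with RSEM 1.3, and they deposited expected counts per gene. These expected counts were rounded to whole numbers (5.97% of the values were not whole), and 0 columns lacked a sample. Symbols came from GENCODE M21, and promoter sequences from RefSeq. Groups came from the sample titles, and pairing from the mouse named in the labels, so that mouse was a block. Correlations of deviations ran from −0.0507 to 0.312 within mice (median 0.113) and from −0.322 to 0.285 between mice (median −0.0156), and 2 of the 6 CX libraries correlated best with the CB library of their own mouse.

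Genes were filtered with filterByExpr (at least 10 counts, 15 in total), normalized by TMM and tested with edgeR 4.0.16 (quasi-likelihood, Benjamini-Hochberg adjustment, adjusted p of 0.1, and a fold of 2 as a second rule) in R 4.3.3. CPM use TMM library sizes. The interactions of region with genotype and with period were fitted in the same way. DESeq2 1.42.0, upper-quartile normalization, no filter, no block, a likelihood ratio test, a stricter threshold and leaving out each mouse were alternatives. On simulated data for CX against CB of WT mice at P7 (17983 genes) the test recovered 12% of changes of 0.25 log2 units, 60% of 0.5, 86% of 1 and 98% of 2 (50 genes each), with 18 other genes called. Only those genes were given a change, whereas 80.9% of genes were called in the data. The adjustment of p was thus stricter in the simulation, and these shares do not give the recovery in the real comparison.

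Named genes were the 12 with the largest fold change in each direction (at least 10 CPM, no overlap, the same sign in every mouse), from each list the 2 with the largest fold change, the 1 with the highest CPM and the least changed, the 5 with the largest change per direction between periods, and the 5 most variable over mice. Members and lists were chosen with earlier results of these data known. Bhlhe22, Calb1, Calb2, Cdk1, Dlx5, Emx2, Gli3, Kif11, Mcm5, Mcm6, Meis2, Mycn, Neurod2, Ptch1, Slc1a2, Smo and Top2a fall outside that rule and were named after their values were seen. Each mouse gave 1 library per region and was a block in the fit. The p-values thus rest on how the region difference varied over mice. Some genes that the rule names are not reported here. A mouse of P35 was left out because its genotype label and the study's sample table differ.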

Additional observations from a re-analysis of the deposited data

Results flagged for a closer look

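In each group of 6 libraries the highest or lowest value was compared with its nearest neighbour by Dixon's criterion. For normally distributed values chance alone meets it in about 1 in 20 groups. That rate is no reference here, since CPM need not be so distributed and some groups held only a few counts. Some of the genes were also named because they varied most over mice. Of 324 groups checked, 45 met it, and 11 were of the CX library of mouse 4 and 12 of the CB library of mouse 6.

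The CX library of mouse 4 stood above the others for Chrm1 (119.3 CPM), Kcng1 (60.03), Egr3 (51.76), Camk2a (431.7), Gli2 (4.11), Ccnd2 (149.1), Grin2b (1689), Nlgn2 (294.8), Trim67 (302.6), mt-Nd5 (556.6) and Shank1 (403.1). The CB library of mouse 6 stood apart for Gda (1.487 CPM), Vip (0.2124), Cdkn1a (13.35), Clic6 (16.72), Ttr (1490), Slc4a5 (6.584), Slc6a5 (19.81), Dsp (1.851), Grm7 (21.76), Prkcb (442.5), Zic4 (144) and Lamp5 (3.762).

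In CX, mouse 1 stood apart for Dlx1 (54.87 CPM), Pcp2 (0.08779), Barhl1 (0.08779), Pax2 (0.02926), Zic1 (28.94), Tfap2c (2.166) and Cdhr1 (62.39). Mouse 2 did for Gabra6 (0.09114 CPM), Uncx (0.243), Tlx3 (0.06076), Itpr1 (160.8), Rarb (9.023) and Barhl2 (1.428). Mouse 3 did for Neurog1 (0.02663 CPM) and mouse 5 for Ttr (35.13). In CB, mouse 2 stood apart for Cdt1 (42.28 CPM), Acta2 (9.749), Col3a1 (331.9) and Lum (10.26), and mouse 3 for Cbln3 (63.02). Mouse 4 did for Rgs16 (5.963 CPM) and mouse 5 for Gm14296 (29.5). Values under 0.1 CPM are of 1 to 3 counts.

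The region difference itself changed between periods, by the interaction term, most for the following genes. From E17.5 to P7 it moved toward CB by log2 changes of −11.05 for Gabra6, −8.302 for Tfap2c, −8.161 for Ifi203, −6.929 for Neurog2 and −6.91 for Mndal and toward CX by 10.22 for Slc6a2, 9.38 for Robo3, 8.667 for Lamp5, 8.363 for Cdhr1 and 7.975 for Slc30a3. From P7 to P35 it moved toward CB by −8.51 for Crtam, −6.517 for Dao, −6.309 for Cbln3, −6.094 for Barhl2 and −5.995 for Trim67 and toward CX by 10.41 for Prdm13, 10.29 for Hist1h2ah, 10.08 for Nhlh1, 8.64 for Dtl and 8.496 for Egr2. All 20 were named for having the largest changes past an adjusted p of 0.1, so their size was part of how they were chosen.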

How the results depend on the processing

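The count of genes called between CX and CB was 14556, and 14649 with upper-quartile normalization, 14020 with DESeq2, 14497 with the likelihood ratio test, 12172 at an adjusted p of 0.01 and 16323 with no low-count filter. Leaving out each mouse gave 13961 to 14701. With no replicate block it was 14613, and 98.7% of the calls of the paired fit were kept. For the named genes the blocked and the unblocked fits differed in the call of Nptx1, Kcnd2, Acsbg1 (adjusted p = 0.113 without the block), Slc6a2 (adjusted p = 0.182) and Ttr (called without the block). Upper-quartile normalization moved the median of all genes from −0.0285 to −0.0721 and took the calls to 6755 higher in CX and 7894 in CB. The interaction of region with genotype gave 0 calls in each fit with the low-count filter and 1 with no low-count filter, lower in WT and past 2-fold. Its cause was not tested.

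In an alternative added after seeing the data, without mice 1 and 6, Ttr turned to 1.81 and Slc4a5 to 2.098. The cause was not tested. Of 2669 recomputed values of named genes, 2617 kept their side of the threshold, 45 lost their call, 5 gained one and 2 turned. A change of direction was counted only where the gene was called in the main or the alternative fit. Medians of the choroid plexus, brainstem and hippocampal lists changed sign among settings. Depth limited genes with few counts, whose ratios rest on counting intervals.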

Other observations

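Among the protein-coding genes whose region difference varied most over the 6 mice were Shank1, mt-Nd5, Fam177a and Gm14296. Shank1, a scaffold of excitatory synapses, had 95.2, 111 and 403 CPM in CX (lowest, median and highest) and 19.9, 22.1 and 38.6 in CB. mt-Nd5, a mitochondrial subunit of complex I, had 87.6, 105 and 557 CPM in CX and 59.6, 76.5 and 108 in CB. The highest CX value of both was in mouse 4, whose library also had the largest mitochondrial share of the 12. Fam177a had 85.5, 101 and 139 CPM in CX and 4.93, 44.3 and 54.7 in CB, with no overlap.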
